A study of Arabidopsis thaliana with 10 samples.

Results

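Levels of 53 Arabidopsis thaliana genes of the cell cycle and of DNA replication were followed in seedlings that expressed GFP, DIG1 or DIG2. They are the A-, B- and D-type cyclins, the cyclin-dependent kinases CDKA and CDKB, their KRP and SMR inhibitors, the E2F factors with RBR1, the MCM helicase, PCNA, the Aurora kinases, CDC20.1 and the syntaxin KNOLLE. Members were chosen by locus and known function, with earlier results of these data known. Of the 53, the deposited table for 4 h of dexamethasone lists 51 among 17371 genes and the table for 10 d lists 52 among 17433 genes, with 50 in both. CYCD6;1 and KRP7 were not in the 4 h table, and CYCD4;1 was not in the 10 d table.

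All 10 libraries came from polyA RNA of whole seedlings of the accession Col-0, 2 libraries in each of 5 groups, and every group, the GFP controls included, received dexamethasone, a steroid drug that activates transgenes built to respond to it. At 4 h, lines titled GFP, DIG1 and DIG2 had been kept dark to an age of 3 d before 4 h in 10 µM dexamethasone, still in the dark. At 10 d, lines titled GFP and DIG1 had grown in long days on plates with 500 nM dexamethasone to an age of 10 d. Another passage of the labels gives the plate dose in mM instead, and nM, found in the other labels, is used here. The series title calls the DIG proteins transcription factors that respond to abscisic acid, a hormone of drought and dormancy. The labels do not give the promoter that drives each transgene or the number of independent lines, and no group was left without dexamethasone. They also do not say whether the 2 libraries of a group were grown separately, and the p-values therefore cover the spread of these libraries, which may be technical.

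The libraries held between 9514825 and 17116217 reads, worked out from the steps between the deposited values, and the median member had between 73 and 196 reads per library. Counting error is therefore largest for the genes that were low in DIG1 at 10 d, where the lowest members had 8 and 7 reads. AT5G50360, the locus printed in the DIG2 titles, stood at 4879 and 2685 RPKM (a read density per length of gene and depth of library) in the DIG2 libraries and at 2.54 or less in the other 4 h libraries. AT3G48510 stood at 1438 RPKM or more in all 4 DIG1 libraries and at 1.90 or less in the others, while the locus printed in the DIG1 titles is in neither table. Replicates correlated across genes at a Pearson r of 0.9846 to 0.9921.

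In the plant cell cycle, D-type cyclins join CDKA to phosphorylate RBR1, the retinoblastoma protein, which releases E2F factors to switch on genes of S phase such as MCM and PCNA. A-type cyclins act from S phase to mitosis, B-type cyclins and the plant-specific CDKB kinases act in G2 and mitosis, and KNOLLE fuses vesicles at the cell plate. KRP and SMR proteins bind and inhibit the kinase complexes, and cells that stop dividing can go on copying their DNA without mitosis, which is called endoreduplication. Divisions in a seedling are concentrated in the root and shoot meristems, in young leaves and in the stomatal lineage, so in RNA from whole seedlings fewer dividing cells and less RNA per cell cannot be told apart.

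The regulatory letters upstream of the genes differ between these phases. The core of the mitosis-specific activator element, bound by MYB3R factors, is AACGG. E2F factors bind sites such as TTTCCCGC, TTTGGCGC, TTTCGCGC or TTTGCCGC, and no other E2F letters were searched. Both strands of the 250 bases before each annotated gene start were searched in the RefSeq genome and annotation of build TAIR10.1, and neither motif contains the other. AACGG was found for 11 of the 17 genes of G2 and M phase, or 64.7%, against 20.6% of 27443 protein-coding genes, and 7 of the 17, or 41.2%, held it at least 2 times, against 3.62%. It was found before 5 of the 10 inhibitors, with 3 of them holding it at least 2 times, before 2 of the 5 genes of the E2F and RBR1 group, 1 of the 8 replication genes and 0 of the 4 A-type cyclins of the CYCA2 and CYCA3 families. E2F letters were found before 5 of the 8 replication genes, or 62.5%, against 1.41% of all genes, and before 0 of the 17 genes of G2 and M phase. A match is a description of the letters, not evidence of binding.

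Sequences of 4 members are shown, 5′ to 3′ on the gene's strand, because they span what was found at 10 d: a B-type cyclin that fell with 4 matches, a B-type cyclin that was not called with 3 matches, the gene of G2 and M phase with the largest fall on the log2(RPKM + 0.5) scale and no match, and a helicase subunit with an E2F match. Capitals mark AACGG, or CCGTT where it lies on the other strand, in the first pair and the E2F letters of the other strand in MCM4. The windows are chr5:1861704-1861953 (minus strand) for CYCB1;2, chr2:7663805-7664054 (plus strand) for CYCB2;1, chr4:16046938-16047187 (minus strand) for CDC20.1 and chr2:7130730-7130979 (minus strand) for MCM4.
CYCB1;2: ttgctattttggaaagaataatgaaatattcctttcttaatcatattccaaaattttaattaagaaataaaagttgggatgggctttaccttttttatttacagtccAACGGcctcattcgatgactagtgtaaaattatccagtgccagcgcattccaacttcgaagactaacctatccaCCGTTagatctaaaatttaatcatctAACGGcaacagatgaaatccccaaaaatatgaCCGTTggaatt
CYCB2;1: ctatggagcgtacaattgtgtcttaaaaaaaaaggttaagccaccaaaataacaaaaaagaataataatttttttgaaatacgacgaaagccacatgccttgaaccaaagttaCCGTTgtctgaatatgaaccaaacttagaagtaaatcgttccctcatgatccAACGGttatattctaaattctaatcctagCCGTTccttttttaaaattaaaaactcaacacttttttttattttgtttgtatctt
CDC20.1: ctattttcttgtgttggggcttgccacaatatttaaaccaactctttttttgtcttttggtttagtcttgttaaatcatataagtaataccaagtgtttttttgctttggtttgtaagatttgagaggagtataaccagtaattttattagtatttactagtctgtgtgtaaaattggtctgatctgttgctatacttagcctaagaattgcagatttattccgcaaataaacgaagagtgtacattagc
MCM4: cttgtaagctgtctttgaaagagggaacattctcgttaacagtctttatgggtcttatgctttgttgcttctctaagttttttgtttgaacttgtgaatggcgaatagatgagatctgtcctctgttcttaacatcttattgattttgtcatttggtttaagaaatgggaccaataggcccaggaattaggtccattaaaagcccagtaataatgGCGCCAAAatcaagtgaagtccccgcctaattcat

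After 10 d, most cell cycle genes were lower in DIG1 seedlings than in GFP seedlings, and among the classes the median fall was deepest for genes of G2 and M phase. Of 52 members, 36 fell and 6 rose (limma on log2(RPKM + 0.5), Benjamini-Hochberg adjusted over the whole table, adjusted p under 0.05), which is 69.2% and 11.5%. The background is high in this comparison, with 31.2% of all 17433 genes lower and 31.9% higher. The median log2 change of the members was -1.26, against 0.05 over all genes. The authors' deposited table, at an FDR under 0.05, has 36 members lower and 7 higher, against 31.1% and 31.5% of all genes. All differences below are on the log2(RPKM + 0.5) scale, which understates the change of low genes, so the ratio of mean RPKM is also given for most genes described.

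**Figure D1:**
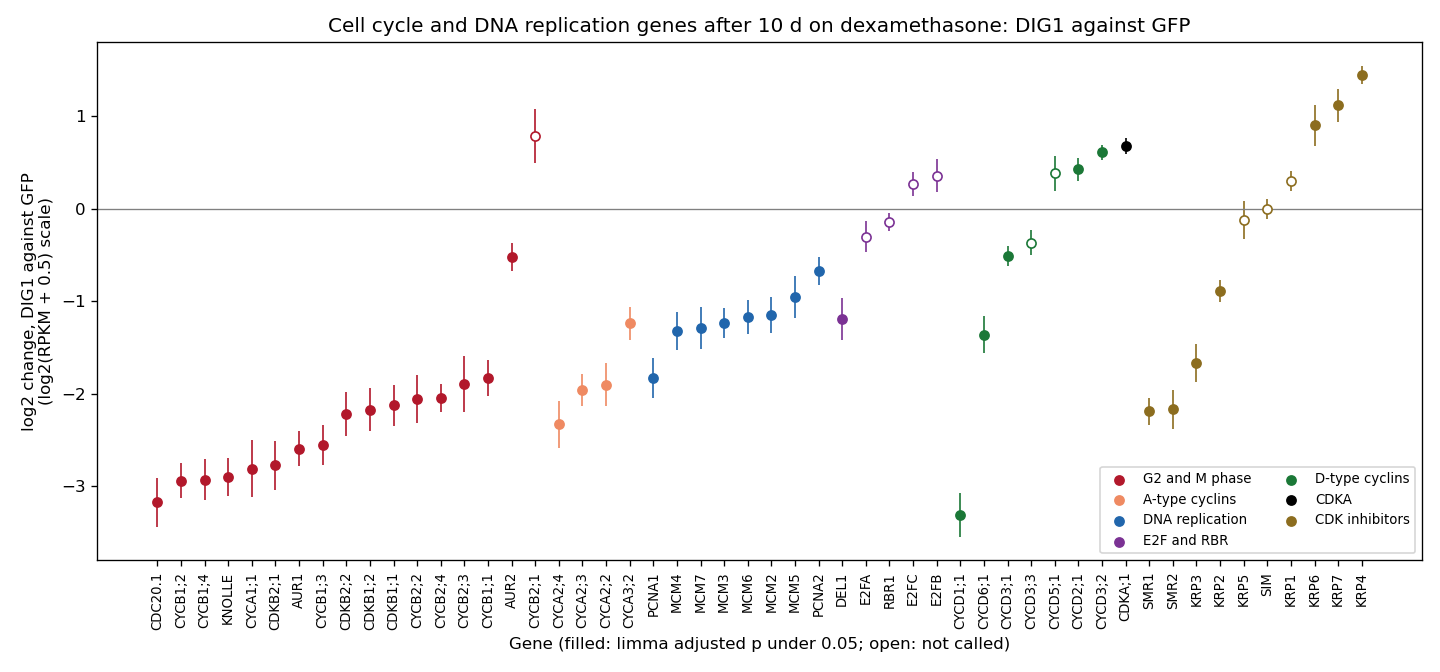
Log2 change of each of the 52 listed members in DIG1 against GFP at 10 d (points) with its standard error (bars), on the log2(RPKM + 0.5) scale, coloured by class, filled where the limma adjusted p was under 0.05. Genes of G2 and M phase reach -3.17, replication genes lie between -1.83 and -0.68, and the inhibitors spread from -2.19 to 1.45.

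Of the 17 genes of G2 and M phase, 16 fell and none rose, with a median log2 change of -2.21. CDC20.1 (AT4G33270), an activator of the anaphase-promoting complex that destroys cyclins, stood at 26.7 and 19.5 RPKM in GFP and at 2.72 and 1.57 RPKM in DIG1. Both DIG1 libraries lay far below both GFP libraries, a 10.7-fold lower mean (log2 change -3.17, SE 0.27, limma adjusted p = 0.000675). It lies beside its near-identical copy CDC20.2, so the authors' counting could have split or lost reads of either, and CDC20.2 also fell (log2 change -2.41, limma adjusted p = 0.0014).

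Among the mitotic cyclins, CYCB1;2 (AT5G06150) stood at 14.1 and 11.6 RPKM in GFP and at 1.43 and 1.06 RPKM in DIG1. The groups did not overlap and the mean was 10.3-fold lower (log2 change -2.94, SE 0.18, limma adjusted p = 0.000391). CYCB1;4 (AT2G26760) went from 8.80 and 6.13 RPKM to 0.583 and 0.485 RPKM. Its DIG1 values rest on 14 reads in each library, and its mean was 14.0-fold lower (log2 change -2.93, SE 0.22, limma adjusted p = 0.000534). KNOLLE (AT1G08560), the syntaxin of the dividing cell plate, stood at 32.4 and 21.9 RPKM in GFP and at 3.09 and 3.18 RPKM in DIG1. The DIG1 libraries were close to each other and the mean was 8.66-fold lower (log2 change -2.90, SE 0.20, limma adjusted p = 0.000457).

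The other 12 genes of the class that fell had log2 changes from -2.81 for CYCA1;1 to -0.52 for AUR2. All 4 CDKB kinases fell, with means 5.66-fold lower for CDKB2;2 to 8.09-fold lower for CDKB1;2. AUR1 and AUR2 encode closely related Aurora kinases, which act on the mitotic spindle and on histone H3, and they differed in size. AUR1 was 7.88-fold lower on 27 and 24 reads in DIG1, whereas AUR2 was 1.46-fold lower, from 8.04 and 8.04 RPKM to 6.10 and 4.89 RPKM (limma adjusted p = 0.0303). Reads of the pair can be shared, and the AUR2 call was lost without GFP replicate 1 (limma adjusted p = 0.117), without GFP replicate 2 (0.115) or without DIG1 replicate 2 (0.113).

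The exception was CYCB2;1 (AT2G17620), a B-type cyclin with 3 AACGG matches before its start. It stood at 2.25 and 1.10 RPKM in GFP and at 3.03 and 3.21 RPKM in DIG1. Both DIG1 libraries were above both GFP libraries, but the GFP libraries differed by more than the gap to DIG1 and the gene was not called (log2 change 0.79, SE 0.29, limma adjusted p = 0.0612). The authors' deposited table calls it higher, as do limma with the replicate block, limma without GFP replicate 1 and voom on recovered reads. Of the 11 genes of the class with AACGG, 10 fell, with a median log2 change of -2.21 over the 11. The 6 without it all fell, with a median of -2.47.

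**Figure D2:**
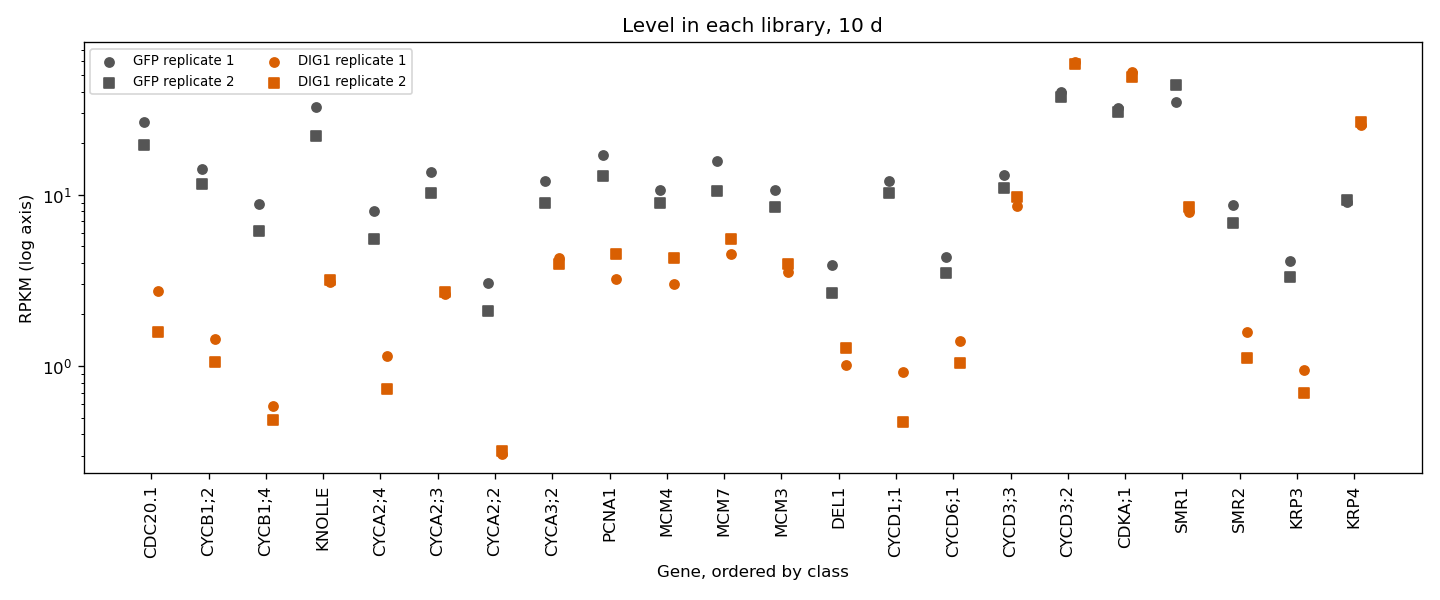
RPKM on a log axis in each of the 4 libraries at 10 d for the 22 members given in full, GFP in grey and DIG1 in orange, with circles for replicate 1 and squares for replicate 2. Both DIG1 points lie below both GFP points for all but CYCD3;2, CDKA;1 and KRP4, where they lie above.

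All 8 replication genes fell, with a median log2 change of -1.20. PCNA1 (AT1G07370), the sliding clamp that holds DNA polymerase on its template, stood at 17.0 and 12.9 RPKM in GFP and at 3.20 and 4.51 RPKM in DIG1. The groups were well apart and the mean was 3.88-fold lower (log2 change -1.83, SE 0.21, limma adjusted p = 0.00161). The paralog PCNA2, whose reads can be confused with those of PCNA1, fell less, from 19.0 and 18.0 RPKM to 9.98 and 13.0 RPKM (1.61-fold lower, limma adjusted p = 0.0132). The PCNA2 call was lost without GFP replicate 1 (0.0753) or GFP replicate 2 (0.0571).

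The MCM2 to MCM7 proteins form the ring-shaped helicase that opens DNA at origins, and its subunits moved by similar amounts. MCM4 (AT2G16440) stood at 10.7 and 8.91 RPKM in GFP and at 3.02 and 4.29 RPKM in DIG1 (2.68-fold lower, log2 change -1.32, SE 0.20, limma adjusted p = 0.00358). MCM7 (AT4G02060) stood at 15.8 and 10.4 RPKM in GFP and at 4.49 and 5.52 RPKM in DIG1 (2.62-fold lower, log2 change -1.29, SE 0.23, limma adjusted p = 0.00608). MCM3 (AT5G46280) stood at 10.6 and 8.50 RPKM in GFP and at 3.54 and 3.96 RPKM in DIG1 (2.55-fold lower, log2 change -1.24, SE 0.16, limma adjusted p = 0.00223). In each of these genes both DIG1 libraries were below both GFP libraries, and the remaining subunits fell between 1.98-fold for MCM5 and 2.49-fold for MCM6. The MCM5 call was lost without GFP replicate 1 (limma adjusted p = 0.095). The 5 replication genes with E2F letters had a median log2 change of -1.17 and the 3 without them one of -1.29.

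The smaller fall of replication genes than of G2 and M genes also shows within each library, where scaling between libraries cancels. The summed RPKM of the 17 genes of G2 and M phase was 1.79 and 1.65 times that of the 8 replication genes in the GFP libraries at 10 d, and 0.822 and 0.561 times in the DIG1 libraries. At 4 h the same ratio was 1.83 and 1.80 in GFP, 1.63 and 1.63 in DIG1 and 2.09 and 1.89 in DIG2. The sums at 10 d went from 187.8 and 139.3 RPKM to 28.9 and 26.0 RPKM for G2 and M phase, and from 104.7 and 84.6 RPKM to 35.2 and 46.4 RPKM for replication. These ratios carry no test and the tables were normalized separately, so levels were not compared between 4 h and 10 d.

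**Figure D3:**
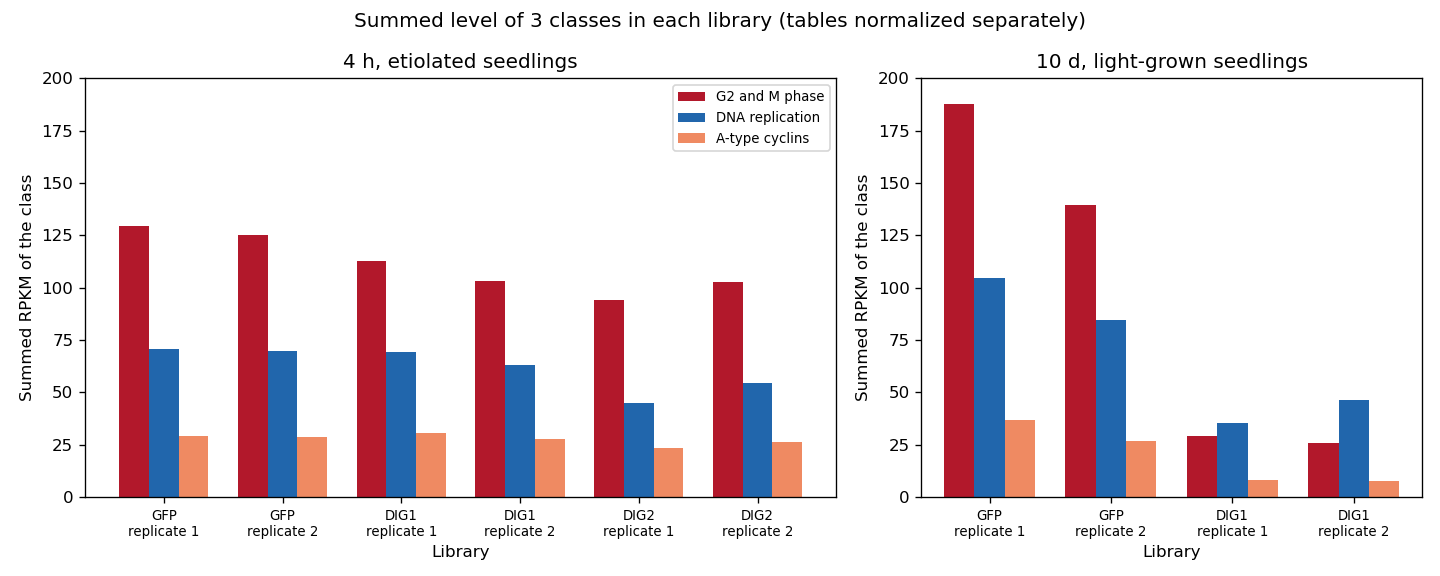
Summed RPKM of the genes of G2 and M phase, the replication genes and the CYCA2 and CYCA3 cyclins (bars from 0) in each of the 10 libraries. At 10 d the G2 and M bar is the tallest in both GFP libraries and stands below the replication bar in both DIG1 libraries.

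The A-type cyclins that act from S phase to mitosis all fell. CYCA2;4 (AT1G80370) stood at 8.01 and 5.51 RPKM in GFP and at 1.14 and 0.737 RPKM in DIG1, a 7.22-fold lower mean (log2 change -2.33, SE 0.25, limma adjusted p = 0.00127). CYCA2;3 (AT1G15570), which restrains endoreduplication, went from 13.5 and 10.3 RPKM to 2.62 and 2.69 RPKM (4.47-fold lower, log2 change -1.96, SE 0.17, limma adjusted p = 0.000724). CYCA2;2 (AT5G11300) went from 3.05 and 2.10 RPKM to 0.307 and 0.320 RPKM, on 8 and 10 reads in DIG1 (8.21-fold lower, log2 change -1.90, SE 0.23, limma adjusted p = 0.00174). CYCA3;2 (AT1G47210) stood at 12.1 and 8.92 RPKM in GFP and at 4.27 and 3.96 RPKM in DIG1, the smallest of these falls at 2.55-fold (log2 change -1.24, SE 0.18, limma adjusted p = 0.00303). No library of either group overlapped the other in these 4 genes.

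Of the 7 listed D-type cyclins, which couple hormones and sugar to entry into the cycle, 3 were lower and 2 higher. These shares of 42.9% and 28.6% compare with 31.2% of all genes lower and 31.9% higher. CYCD1;1 (AT1G70210) had the largest fall of all 52 members. It stood at 12.1 and 10.3 RPKM in GFP and at 0.927 and 0.469 RPKM in DIG1, a 16.0-fold lower mean on 28 and 17 reads (log2 change -3.31, SE 0.24, limma adjusted p = 0.000471). CYCD6;1 (AT4G03270), known from the divisions of the ground tissue of the root, went from 4.36 and 3.47 RPKM to 1.40 and 1.04 RPKM (3.21-fold lower, log2 change -1.36, SE 0.20, limma adjusted p = 0.00343). SHR and SCR, the root factors known to switch CYCD6;1 on, were 1.55-fold lower (limma adjusted p = 0.0179) and not called (adjusted p = 0.948).

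The CYCD3 genes, which prolong the dividing phase of leaves, differed in their calls, and the differences between them were not tested. CYCD3;2 (AT5G67260) rose from 39.6 and 37.2 RPKM to 59.6 and 57.9 RPKM, with the groups apart (1.53-fold higher, log2 change 0.61, SE 0.09, limma adjusted p = 0.00292). CYCD3;1 fell from 28.6 and 25.7 RPKM to 17.9 and 20.0 RPKM (log2 change -0.51, SE 0.11, limma adjusted p = 0.0122). CYCD3;3 (AT3G50070) stood at 12.96 and 10.96 RPKM in GFP and at 8.60 and 9.69 RPKM in DIG1, lower in both DIG1 libraries but not called (log2 change -0.37, SE 0.14, limma adjusted p = 0.0648), although median-of-ratios scaling and voom called it lower. CYCD2;1 rose from 14.0 and 15.8 RPKM to 18.7 and 21.7 RPKM (log2 change 0.42, limma adjusted p = 0.0316). Without GFP replicate 1 the last call and that of CYCD3;1 were lost (limma adjusted p = 0.142 and 0.0698), and that of CYCD2;1 was also lost without GFP replicate 2 (0.0598) or DIG1 replicate 2 (0.131).

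CDKA;1 (AT3G48750), the kinase that D-type cyclins join, rose. It stood at 32.2 and 30.5 RPKM in GFP and at 51.8 and 48.9 RPKM in DIG1, so that both groups were tight and apart (1.61-fold higher, log2 change 0.68, SE 0.09, limma adjusted p = 0.00229). Of RBR1 and the 4 E2F genes, only DEL1 (AT3G48160) was called. This is 20.0% lower and none higher, against 31.2% of all genes lower and 31.9% higher. DEL1, an atypical E2F that represses endoreduplication, went from 3.90 and 2.68 RPKM to 1.02 and 1.27 RPKM (2.87-fold lower, log2 change -1.19, SE 0.23, limma adjusted p = 0.00781). E2FA, E2FB, E2FC and RBR1 had log2 changes between -0.30 and 0.36, with the lowest adjusted p at 0.125 for E2FC.

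Among the 10 inhibitors, 4 fell and 3 rose, against 31.2% of all genes lower and 31.9% higher. For a class of 10 genes, these counts are close to that background. SMR1 (AT3G10525), which promotes endoreduplication in the epidermis, stood at 34.7 and 43.9 RPKM in GFP and at 7.88 and 8.47 RPKM in DIG1 (4.81-fold lower, log2 change -2.19, SE 0.14, limma adjusted p = 0.000412). SMR2 (AT1G08180) went from 8.73 and 6.85 RPKM to 1.58 and 1.11 RPKM, on 13 and 11 reads (5.78-fold lower, log2 change -2.17, SE 0.21, limma adjusted p = 0.00092). SIM, the founder of the family and an inhibitor of division in leaf hairs, stood at 15.1 and 16.2 RPKM in GFP and at 16.4 and 14.8 RPKM in DIG1. Its groups overlapped (log2 change 0.00, SE 0.11, limma adjusted p = 0.986).

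The KRP inhibitors went both ways. KRP4 (AT2G32710) had the largest rise of all members, from 9.08 and 9.35 RPKM to 25.5 and 26.4 RPKM, with close replicates (2.82-fold higher, log2 change 1.45, SE 0.10, limma adjusted p = 0.000425). KRP7 rose from 2.03 and 2.25 RPKM to 4.58 and 5.93 RPKM (2.46-fold higher, limma adjusted p = 0.00452). KRP6 rose from 4.92 and 6.02 RPKM to 8.68 and 12.9 RPKM (1.97-fold higher, limma adjusted p = 0.018), a call lost without GFP replicate 1 (0.0979), GFP replicate 2 (0.0505) or DIG1 replicate 2 (0.0512). KRP3 (AT5G48820) fell from 4.13 and 3.31 RPKM to 0.953 and 0.695 RPKM (4.51-fold lower, log2 change -1.67, SE 0.20, limma adjusted p = 0.00184). KRP2 fell 1.93-fold (limma adjusted p = 0.00235). KRP1 and KRP5 were not called (adjusted p = 0.0552 and 0.632).

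Other genes of the same processes showed the same contrast in size. Of 19 other mitotic genes listed at 10 d, 18 fell and none rose, with a median log2 change of -2.14. They included HIK, a kinesin of cytokinesis (12.7-fold lower, log2 change -3.01, limma adjusted p = 0.000611), the spindle checkpoint protein MAD2 (10.0-fold lower, -2.91, adjusted p = 0.000365) and the spindle assembly factor TPX2 (11.4-fold lower, -2.73, adjusted p = 0.000567). MYB3R4, an activator that binds the AACGG core, fell (7.35-fold lower, log2 change -2.09, limma adjusted p = 0.00201). Its relative MYB3R1 was not called (log2 change 0.27, adjusted p = 0.1). Of 26 other replication genes, 19 fell and 3 rose, with a median log2 change of -0.81. TSO2, a subunit of the reductase that makes deoxynucleotides, fell (3.15-fold lower, log2 change -1.65, limma adjusted p = 0.00252). The 3 that rose were PSF1 (2.20-fold, adjusted p = 0.00319) of the GINS complex, RNR2A (1.93-fold, 0.00305), a paralog of TSO2, and the flap nuclease FEN1 (1.40-fold, 0.0357). Of 17 other regulators, 5 fell and 4 rose, or 29.4% and 23.5%, against 31.2% of all genes lower and 31.9% higher. Those that fell included CKS2 (log2 change -2.11, limma adjusted p = 0.00104) and the kinase WEE1 (-1.66, adjusted p = 0.00354). The 4 that rose were CDKD;2, SMR6, SMR8 and SOG1, with log2 changes from 0.58 to 0.93.

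Marker genes of the tissues that hold dividing cells moved in both directions. Of the 5 root meristem markers, PLT1, PLT2 and WOX5 were in neither table, and the summed level of SHR and SCR was 33.4 and 38.1 RPKM in GFP and 31.5 and 33.0 RPKM in DIG1. The summed level of the 4 listed shoot meristem markers of 6 was 28.1 and 28.2 RPKM in GFP and 21.0 and 19.1 RPKM in DIG1. Within it CLV1 fell (log2 change -1.49, limma adjusted p = 0.000783) and KNAT2 rose (1.10, adjusted p = 0.0113). STM (-0.88, adjusted p = 0.105) and KNAT1 (0.25, adjusted p = 0.149) were not called, and CLV3 and CUC3 were in neither table. Of 6 leaf growth genes, AN3, GRF5 and ANT fell by 0.90, 1.03 and 1.42 on the log2 scale, while GRF1 and GRF3 rose by 1.22 and 2.72. GRF2 was not called (0.52, limma adjusted p = 0.0534). The sum of the 6 was 52.3 and 41.2 RPKM in GFP and 93.5 and 94.7 RPKM in DIG1. Of that sum, GRF3 alone made up 8.56 and 8.23 RPKM in GFP and 58.1 and 57.9 RPKM in DIG1. Of the stomatal lineage, SPCH (log2 change 1.40, limma adjusted p = 0.000615) and TMM (0.85, adjusted p = 0.00338) rose, EPF2 and BASL were not called, MUTE was in neither table, and the sum went from 28.7 and 34.0 RPKM to 50.1 and 59.7 RPKM. CASP1, a marker of the root endodermis, fell from 13.6 and 21.8 RPKM to 2.11 and 1.17 RPKM (log2 change -3.08, adjusted p = 0.00106). The part of these tissues in the changes of the cell cycle genes was not tested.

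After 4 h in the dark, changes were few and smaller. In DIG1 against GFP, 1 of 51 members rose and 2 fell, which is 1.96% and 3.92%. These shares are close to the background of 3.01% of all genes higher and 5.54% lower, and the median log2 change of the members was -0.12 against 0.00 over all genes. The authors' deposited table also has 1 member higher and 2 lower, against 4.14% and 7.08% of all genes. In DIG2 against GFP, 7 of 51 fell, or 13.7%, and none rose, against 7.48% of all genes lower and 7.37% higher, and the median was -0.26 against -0.01. At an unadjusted p under 0.05, 8 of 51 members differed in DIG1 and 22 in DIG2, against 22.1% and 29.7% of all genes. The authors' deposited table has 13 members lower and 1 higher in DIG2, against 9.41% and 9.38% of all genes. Both comparisons use the same GFP libraries.

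**Figure D4:**
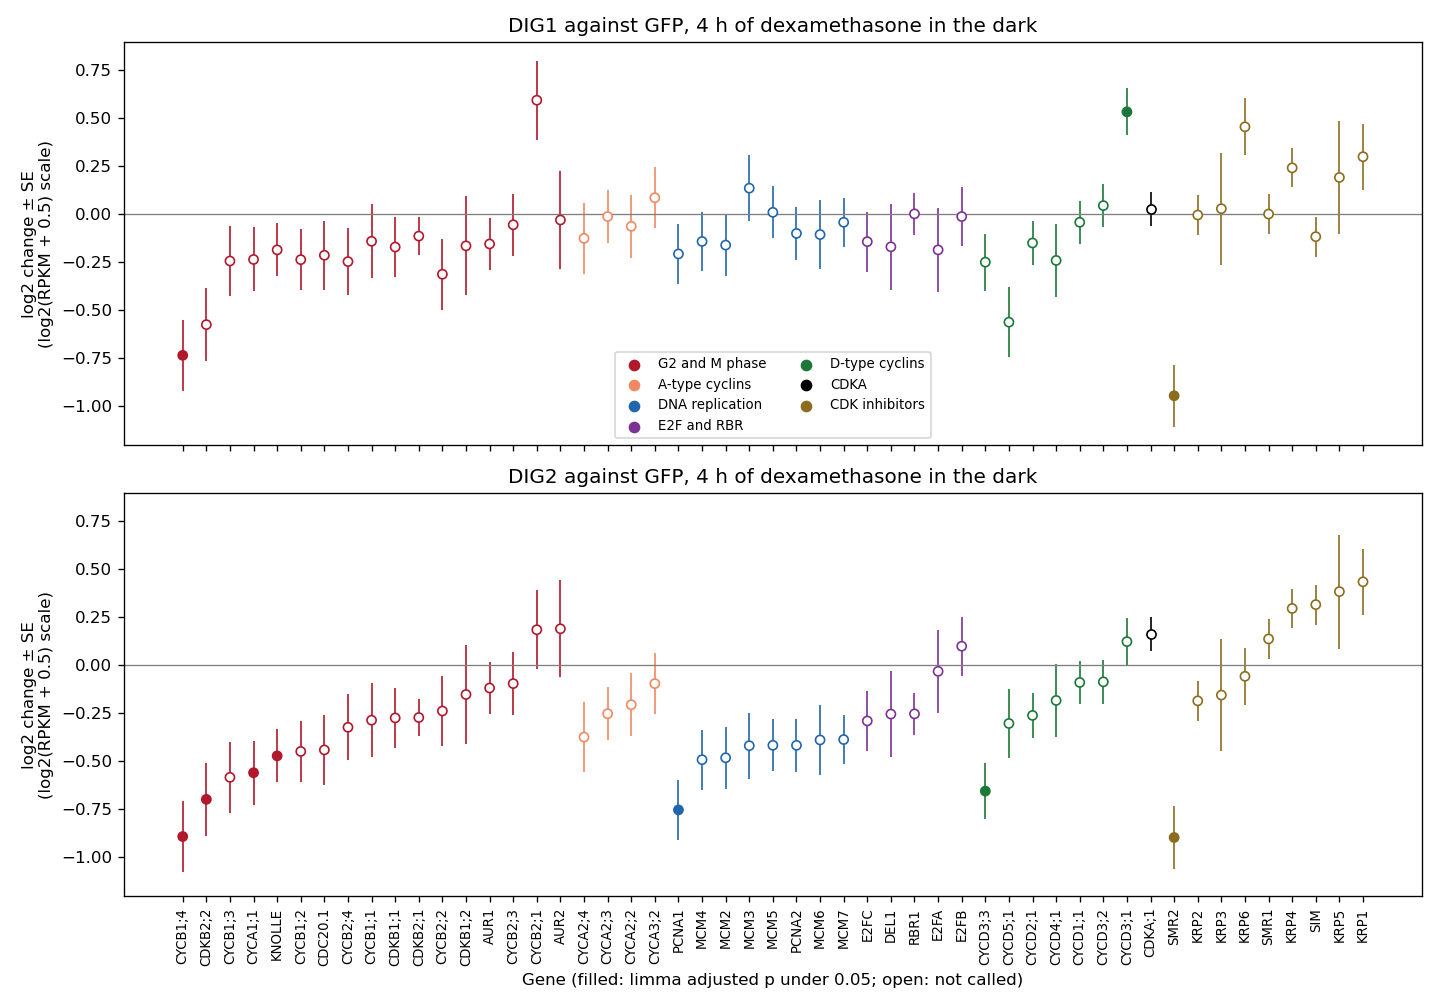
Log2 change of each of the 51 listed members in DIG1 (top) and DIG2 (bottom) against GFP at 4 h (points) with its standard error (bars), on the log2(RPKM + 0.5) scale, in 1 gene order coloured by class, filled where the limma adjusted p was under 0.05. The 8 replication genes lie between -0.76 and -0.39 in DIG2 and between -0.21 and 0.14 in DIG1.

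The 2 members that fell in both lines were SMR2 and a mitotic cyclin. SMR2 stood at 9.62 and 7.80 RPKM in GFP, 4.64 and 3.90 RPKM in DIG1 and 4.22 and 4.62 RPKM in DIG2. All 4 libraries of the DIG lines were below both GFP libraries, with log2 changes of -0.95 (SE 0.16, limma adjusted p = 0.00639) and -0.90 (SE 0.16, adjusted p = 0.00625). Without GFP replicate 1 the calls were lost in DIG1 (adjusted p = 0.0616) and DIG2 (0.0623), and in DIG1 also without DIG1 replicate 2 (0.0524). CYCB1;4 stood at 9.47 and 12.6 RPKM in GFP, 7.51 and 5.38 RPKM in DIG1 and 5.69 and 5.63 RPKM in DIG2. Again both DIG lines lay below GFP, with log2 changes of -0.74 (SE 0.18, limma adjusted p = 0.036) and -0.89 (SE 0.18, adjusted p = 0.0114). These calls were lost without GFP replicate 2 (adjusted p = 0.272 in DIG1 and 0.0998 in DIG2), in DIG1 without its replicate 2 (0.197) and in DIG2 without its replicate 1 (0.0532).

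The member that rose in DIG1 was CYCD3;1, at 12.6 and 12.7 RPKM in GFP, 20.4 and 16.8 RPKM in DIG1 and 14.3 and 13.3 RPKM in DIG2. The DIG1 libraries were the highest of the 6 (log2 change against GFP 0.53, SE 0.12, limma adjusted p = 0.0247). The call was lost without GFP replicate 1 (adjusted p = 0.113), GFP replicate 2 (0.128) or DIG1 replicate 1 (0.138), and CYCD3;1 was not called in DIG2 (adjusted p = 0.551).

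Genes of G2 and M phase in DIG2 had a median log2 change of -0.29, against -0.01 over all genes. Of the 17, 4 fell, among them the cyclin described above. This is 23.5%, against 7.48% of all genes lower. The authors' deposited table has 6 of the 17 lower, with CYCB1;2 and CYCB1;3 added, against 9.41% of all genes. KNOLLE stood at 19.2 and 16.0 RPKM in GFP, 17.2 and 13.7 RPKM in DIG1 and 12.1 and 12.9 RPKM in DIG2 (log2 change in DIG2 -0.47, SE 0.14, limma adjusted p = 0.0461). For KNOLLE, only the DIG2 libraries were separate from GFP. CDKB2;2 stood at 9.44 and 7.80 RPKM in GFP, 4.93 and 6.32 RPKM in DIG1 and 4.30 and 6.01 RPKM in DIG2 (log2 change in DIG2 -0.70, SE 0.19, limma adjusted p = 0.0354). CYCA1;1 stood at 3.40 and 3.45 RPKM in GFP, 2.97 and 2.70 RPKM in DIG1 and 2.07 and 2.26 RPKM in DIG2 (-0.56, SE 0.17, adjusted p = 0.0485). Both genes also had both DIG1 libraries below GFP, but were not called in DIG1 (log2 change -0.58, limma adjusted p = 0.0994, and -0.24, 0.473). Neither was called between DIG1 and DIG2 (limma adjusted p = 0.792 and 0.355). The calls of KNOLLE and CYCA1;1 were lost when any 1 of the 4 compared libraries was left out (adjusted p = 0.0711 to 0.273 and 0.0996 to 0.203). KNOLLE was also lost without a variance trend (0.0877), and CYCA1;1 with a pseudocount of 0.1 (0.0516), the filter at 1 RPKM (0.051), the replicate block (0.0594) or only the compared groups (0.0537), so in 8 of 12 alternatives. That of CDKB2;2 was lost without GFP replicate 1 (0.202), GFP replicate 2 (0.0778) or DIG2 replicate 1 (0.215), or without a variance trend (0.0597). CDC20.1 stood at 12.2 and 9.38 RPKM in GFP and at 8.08 and 7.40 RPKM in DIG2 and was not called (log2 change -0.44, limma adjusted p = 0.133).

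All 8 replication genes had both DIG2 libraries below both GFP libraries, but the share of all genes that did so was not counted. Their median log2 change was -0.42, against -0.01 over all genes. At an unadjusted limma p under 0.05, 7 of the 8 differed, against 29.7% of all genes. Only PCNA1 was called, which is 12.5% of the 8, against 7.48% of all genes lower. PCNA1 stood at 11.5 and 9.87 RPKM in GFP, 10.5 and 7.93 RPKM in DIG1 and 6.16 and 6.04 RPKM in DIG2 (log2 change in DIG2 -0.76, SE 0.16, limma adjusted p = 0.0118). The call was lost without GFP replicate 1 (adjusted p = 0.0921) or DIG2 replicate 1 (0.0529). MCM4 stood at 8.03 and 8.23 RPKM in GFP, 6.80 and 7.88 RPKM in DIG1 and 4.96 and 6.39 RPKM in DIG2, and was not called (log2 change in DIG2 -0.49, SE 0.16, limma adjusted p = 0.0614). The other 6 had log2 changes between -0.48 and -0.39 in DIG2, with adjusted p between 0.0681 and 0.181. Limma's voom on recovered reads, an alternative added after seeing the data, called MCM2, MCM4, MCM5, MCM7 and PCNA1 lower. The authors' deposited table, at an FDR under 0.05, has the same 5 of the 8 lower, against 9.41% of all genes. Limma with the replicate block called MCM4 lower beside PCNA1.

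Of the remaining members in DIG2, CYCD3;3 fell. It stood at 10.4 and 8.29 RPKM in GFP, 8.15 and 7.35 RPKM in DIG1 and 5.81 and 5.62 RPKM in DIG2, where it was the lowest (log2 change -0.66, SE 0.15, limma adjusted p = 0.0165). The call was lost without GFP replicate 1 (adjusted p = 0.14), DIG2 replicate 1 (0.066) or DIG2 replicate 2 (0.0571). SIM was the most abundant inhibitor, at 98.0 and 100.5 RPKM in GFP, 98.3 and 85.1 RPKM in DIG1 and 128 and 119 RPKM in DIG2. It was above GFP in both DIG2 libraries but not called (log2 change 0.32, SE 0.10, limma adjusted p = 0.0692). The authors' deposited table calls SIM higher in DIG2, as do limma with only the compared groups and voom on recovered reads. CDKA;1, KRP4, SMR1 and CYCD1;1, all called at 10 d, were not called at 4 h in either line.

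DIG1 and DIG2 were compared directly at 4 h, at the same dose and time. None of the 51 members was called by limma, with 11 at an unadjusted p under 0.05, against 17.4% of all genes, and 1, SIM, called lower in DIG1 by voom on recovered reads. The background was 0.622% of all genes higher and 1.74% lower in DIG1. SIM came closest (log2 change, DIG1 against DIG2, -0.43, SE 0.10, limma adjusted p = 0.0635). All 8 replication genes had both DIG1 libraries above both DIG2 libraries, but the share of all genes that did so was not counted. At an unadjusted limma p under 0.05, 6 of the 8 differed, against 17.4% of all genes. Their median log2 difference was 0.35, with a range from 0.28 to 0.56. That median was 0.213 without DIG2 replicate 1 and 0.507 without DIG2 replicate 2. The largest difference was that of MCM3, with 7.70 and 6.24 RPKM in DIG1 against 3.93 and 5.27 RPKM in DIG2 (limma adjusted p = 0.133). Of 26 other replication genes, RPA1B, a subunit of the protein that coats single-stranded DNA, was called higher in DIG1, at 3.84 and 4.33 RPKM against 2.09 and 2.10 RPKM in DIG2 (log2 difference 0.82, SE 0.16, limma adjusted p = 0.0327).

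The wider lists had few calls at 4 h. In DIG1 none of 26 other replication genes, 20 other mitotic genes or 18 other regulators was called, with 3, 1 and 3 at an unadjusted p under 0.05, against 22.1% of all genes, and the authors' deposited table calls 1 replication gene higher. In DIG2, RPA2A (log2 change -0.60, limma adjusted p = 0.0371), TSO2 (-0.49, 0.0147), MAD2 (-0.53, 0.0361) and CCS52A1 (-0.45, 0.0411) fell and the inhibitor SMR8 rose (0.72, 0.017). The shares called lower were 7.69% of the other replication genes, 5.0% of the other mitotic genes and 5.56% of the other regulators. Of these regulators 5.56% were called higher. These limma shares are close to or below the 7.48% of all genes lower and 7.37% higher. In the authors' deposited table, 5 of 26 other replication genes, 3 of 20 other mitotic genes and 1 of 18 other regulators are lower in DIG2. The background there is 9.41% of all genes lower. That table has 1 of these regulators higher, against 9.38% of all genes. At an unadjusted limma p under 0.05, 9, 4 and 5 genes of the 3 lists differed in DIG2, against 29.7% of all genes. Median log2 changes in DIG2 were -0.31 for the other replication genes and -0.35 for the other mitotic genes. Summed marker levels at 4 h ranged over 43.1 to 52.9 RPKM for the root meristem, 77.4 to 91.5 RPKM for the shoot meristem, 72.9 to 83.7 RPKM for leaf growth and 11.4 to 19.4 RPKM for the stomatal lineage across the 6 libraries. Within these sums GRF2 fell in DIG1 (log2 change -1.22, limma adjusted p = 0.000576) and DIG2 (-0.86, 0.00266). GRF3 rose in DIG1 (0.64, limma adjusted p = 0.00955) and DIG2 (0.73, 0.00384). CLV1 fell in DIG1 (-0.39, limma adjusted p = 0.0394) and was not called in DIG2 (-0.17, 0.273). The other listed markers of these tissues were not called in either line against GFP.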

How the data were processed

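RNA-seq of 10 libraries was analysed from 2 tables that the authors deposited, 1 for 4 h and 1 for 10 d. Per the file headers they hold an RPKM value for each gene and library and, for each DIG line, the authors' log2 fold change and FDR, an adjusted p-value. Per the labels' protocols the libraries were stranded polyA libraries. HTSeq 0.5.4, edgeR 3.6.2 and the build TAIR10 are named by the submitters' processing notes, and the aligner and the strand setting of the counting were not given in the sources used here. In 1 column of each deposited file the gene name and the value are separated by a space, and these values were read as other RPKM values are.

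Values were tested as log2(RPKM + 0.5) with limma 3.58.1 in R 4.3.3 (two-sided, empirical Bayes with a variance trend, Benjamini-Hochberg adjustment over all genes of a table, threshold 0.05). The 4 h fit used 6 libraries and the 10 d fit 4. The scripts were tested on simulated data. Tables were normalized separately and were not tested against each other. Whole reads recovered from RPKM steps (tolerance 0.001 read) covered 99.94% of genes at 4 h and 99.86% at 10 d, and gave depths and 1 alternative. Where the reads of a gene shared a factor in 1 table, its step in the other table set the count, for 1507 of 16361 genes in both. All but 4 of 17360 and 16 of 17409 of these genes reached 2 CPM (reads scaled to depth) in at least 2 libraries, so genes below that were largely absent from the deposited tables.

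Members, other lists and motifs were chosen with earlier results of these data known. In each class, up to 4 members with the largest absolute log2 change among called ones are given in full, and the others by count and range, with further named genes chosen after their values were seen. All 152 listed genes matched the TAIR10.1 annotation. No promoter table was used, and sequences cover 250 bases before each gene start and none after it. Replicate agreement between libraries was poorer than counting noise in every group (chi-square per degree of freedom 4.702 to 10.867), so no library was counted as a copy of another. Alternatives were 2 pseudocounts, a filter at 1 RPKM, no variance trend, another scaling, the replicate number as a block, only the compared groups, each library left out, and voom.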

Additional observations from a re-analysis of the deposited data

Results flagged for a closer look

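Of the 50 members in both tables, 4 had every DIG1 library on one side of GFP at 4 h and the other side at 10 d. The share of all genes that did so was not counted, and the difference between the times was not tested. Only CYCD3;1 of the 4 was called at both times, higher at 4 h (log2 change 0.53, limma adjusted p = 0.0247) and lower at 10 d (-0.51, adjusted p = 0.0122). CYCD2;1 had log2 changes of -0.15 (adjusted p = 0.52) and 0.42 (0.0316). CYCD5;1 had log2 changes of -0.56 (limma adjusted p = 0.0914) and 0.38 (0.137), and E2FC had -0.14 (0.666) and 0.26 (0.125). Age, light, dose and duration all differ between the times, and their parts cannot be told apart.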

How the results depend on the processing

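At 10 d the counts of 36 members lower and 6 higher stayed within 1.5 times under all 11 alternatives, and 36 of the 42 calls were kept in each of them. At 4 h all 10 calls were lost in at least 1 of 12 alternatives. The count lower in DIG1 was 1 in place of 2 without a variance trend and 0 to 2 when 1 library was left out, and the count higher in DIG1 was 0 to 1. Without a trend the member called higher in DIG1 was CYCB2;1 in place of CYCD3;1. The count lower in DIG2 was 11 in place of 7 with voom on recovered reads, an alternative chosen after seeing the data, and 1 to 5 when 1 library was left out, with the fewest calls without GFP replicate 1 or DIG2 replicate 1. The count higher in DIG2 was 1 in place of 0 with only the compared groups or with voom, SIM in both, and 0 to 1 when 1 library was left out. With voom, 1 member, again SIM, was called lower in DIG1 than in DIG2, in place of 0. The cause of these moves was not tested, except that leaving out a library reduces the samples. No call of a member changed direction. In DIG1 at 4 h the median of the CYCA2 and CYCA3 cyclins went from -0.037 to 0.006 without GFP replicate 1. With the replicate block, 2 members were lower and 1 higher in DIG1 at 4 h, 7 were lower in DIG2 (CYCA1;1 lost, adjusted p = 0.0594, and MCM4 gained), and 36 were lower and 7 higher, CYCB2;1 added, at 10 d. Replicate differences correlated weakly, at 0.163, between GFP and DIG2 at 4 h. The correlation was 0.017 between GFP and DIG1 and -0.009 between DIG1 and DIG2 at 4 h, and 0.041 at 10 d. Over all genes, removing the trend moved DIG1 calls at 4 h from 522 higher to 329, DIG2 calls from 1281 higher to 762, and DIG1 against DIG2 from 108 higher and 302 lower to 38 and 111, where only the compared groups gave 65 higher. With 1 library left out, all-gene calls at 4 h were 141 to 254 higher and 335 to 587 lower in DIG1, 406 to 926 and 509 to 1086 in DIG2, and 20 to 87 and 88 to 163 in DIG1 against DIG2. The median log2 change of the genes of G2 and M phase at 10 d was -2.818 and -1.996 with pseudocounts of 0.1 and 1 and -2.980 with voom, and that of the CYCA2 and CYCA3 cyclins -2.388, -1.618 and -2.527, against -1.930. All-gene calls at 10 d went from 5560 higher and 5439 lower to 5070 and 5770 with median-of-ratios scaling and 5169 and 5803 with voom, and the all-gene median from 0.0469 to -0.0075 and -0.0105. The planned edgeR test was not run, because the tables hold RPKM.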
